A study of Mus musculus with 7 samples.

Results

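Hair keratins and keratin-associated proteins (KAPs) were counted in the skin of 7 mice. The set holds every gene whose name begins with Krtap, which are 58 genes, and 23 keratins of the hair shaft, the inner root sheath and related sites taken from a list of 24 names. The remaining keratin of that list was not analysed here. Together they are 81 of the 56691 genes in the count table, and all 81 were taken without a minimum of expression. Of these, 65 had at least 1 count in some library, 56 of them in a single library, that of knockout mouse 2. The other 16 had 0 counts in all 7 libraries.

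The hair shaft is built from keratin filaments embedded in a matrix of KAPs. A filament needs a type I and a type II keratin, and the KAPs, which are rich either in cysteine or in glycine and tyrosine, cross-link the filaments into hard hair. Around the forming shaft lies the inner root sheath, which has its own keratins and moulds the hair as it rises. These genes are transcribed mainly in the lower follicle while a hair grows, first in the sheath and matrix, then in the cortex and cuticle.

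The study compared skin of healthy appearance from 3 mice lacking Tuft1 (mice 2, 3 and 4) with skin of 4 wild-type mice (mice 5, 6, 7 and 8). Tuft1 encodes tuftelin 1, a protein that the series title links to desmosomes and to a phenotype that includes woolly hair. The labels give the genotype and the look of the skin. The allele, strain, age, sex, body site and stage of the hair cycle are not given in the sources used here. Each mouse gave 1 library of the 3' ends of polyadenylated RNA, so counts do not grow with transcript length and are set side by side between genes as they are. P-values below come from tests between the genotypes with each mouse as 1 unit. For a gene counted in 1 mouse only, they rest on the variability that the model fits, not on a spread seen between mice.

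The libraries held 7009237 to 9256459 counts, in 12302 to 14379 genes. Mitochondrially encoded genes took 12.3% to 21.6% of the counts. Tuft1 itself had 154, 260 and 131 counts in the 3 knockouts, and the 4 wild types had 985, 923, 453 and 922. The labels do not name the allele, and the origin of the counts left in the knockouts was not tested. Knockout mouse 2 stands apart from the other 6 libraries in the genes described here, and values without it are given beside the results that rest on it. In these bulk libraries, fewer cells of a type and less RNA per cell cannot be told apart.

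The 6 promoters below belong to the members on which the results turn. The genes Krtap3-1, Krtap3-2 and Krtap3-3 are neighbours of 1 subfamily that were counted very differently across the libraries. Krt32 is the only keratin counted in every library, and Krt25 and Krt71 are the type I and type II inner root sheath keratins with the most counts. Each sequence is the 150 bases before the annotated start of transcription, 5' to 3' on the strand of the gene, from RefSeq on GRCm38.p6, with TATAAA (the TATA box core) and AACAAAG (the reverse complement of CTTTGTT) in capitals.
Krtap3-1: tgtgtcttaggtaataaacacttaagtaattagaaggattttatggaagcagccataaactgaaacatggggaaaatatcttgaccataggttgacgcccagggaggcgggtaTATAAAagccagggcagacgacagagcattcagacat
Krtap3-2: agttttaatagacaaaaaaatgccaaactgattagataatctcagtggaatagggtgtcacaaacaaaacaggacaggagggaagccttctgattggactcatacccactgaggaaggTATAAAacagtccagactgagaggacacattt
Krtap3-3: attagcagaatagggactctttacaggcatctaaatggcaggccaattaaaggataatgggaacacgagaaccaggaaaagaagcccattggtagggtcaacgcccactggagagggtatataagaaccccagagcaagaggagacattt
Krt32: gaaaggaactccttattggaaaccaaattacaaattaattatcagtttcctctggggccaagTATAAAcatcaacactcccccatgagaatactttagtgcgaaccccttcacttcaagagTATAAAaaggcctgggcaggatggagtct
Krt25: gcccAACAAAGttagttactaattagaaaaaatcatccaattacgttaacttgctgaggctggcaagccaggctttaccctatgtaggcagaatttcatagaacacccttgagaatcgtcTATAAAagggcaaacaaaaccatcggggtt
Krt71: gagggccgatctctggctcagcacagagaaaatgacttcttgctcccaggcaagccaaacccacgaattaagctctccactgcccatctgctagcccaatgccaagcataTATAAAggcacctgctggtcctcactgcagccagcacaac

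On GRCm38.p6 these windows are chr11:99566631-99566780 for Krtap3-1, chr11:99556854-99557003 for Krtap3-2, chr11:99550864-99551013 for Krtap3-3, chr11:100088270-100088419 for Krt32, chr11:99322952-99323101 for Krt25 and chr15:101743098-101743247 for Krt71, all on the minus strand. TATAAA was found on the strand of the gene, with its first base 37 bases before the start in Krtap3-1 and 32 bases before it in Krtap3-2. Krtap3-3 has no TATAAA in this window, but it holds tatata, which matches the looser pattern TATANA. Krt32 has TATAAA at 88 and at 29 bases before the start, Krt25 at 30 bases and Krt71 at 40 bases. After alignment with gaps, the promoters of the KAP3 trio were 61.3% to 62.7% identical, and the other pairs among the 6 were 53.3% to 60.7% identical.

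Promoters of 67 of the 81 members were matched by symbol in the RefSeq-derived table. TATAAA lay within the 150 bases before the start, on either strand, in 52 of the 67 (77.6%), against 7.57% of all 32851 promoters in the table. By family, it was present in 41 of 51 KAP promoters (80.4%) and in 11 of 16 keratin promoters (68.8%). In 40 of the 67 (59.7%) it began 25 to 40 bases before the start, the usual place of a TATA box, against 1.91% of all promoters. TATANA, searched after the data were seen and covering TATAAA, was present in 63 of 67 (94.0%) against 13.3% of all. The letters bound by LEF and TCF factors, which carry WNT signals in the hair matrix, were rarer. CTTTGAA was in 3 of 67 members (4.48%) and 2.40% of all promoters, and CTTTGTT in 5 of 67 (7.46%) and 2.90% of all, on either strand. Family members share descent, so these promoters are not independent of each other, and a match of letters is not a bound site.

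Knockout mouse 2 had counts for 65 of the 81 members (80.2%). The other knockouts, mice 3 and 4, had counts for 3 and 5 members, and the wild types for 5, 4, 4 and 5. All genes together did not differ in this way, since 25.4% of the genes in the table had a count in knockout mouse 2, and 21.7% to 25.01% in the other libraries. The summed counts of the members were 13198 in knockout mouse 2, 729 and 554 in knockout mice 3 and 4, and 597, 549, 1145 and 694 in the wild-type mice.

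These sums are 0.168% of all counts of knockout mouse 2 (95% exact Clopper-Pearson interval 0.165% to 0.171%) and 0.00637% to 0.0131% of those of the other libraries, intervals that cover counting error only. Genotype did not order the libraries, because knockout mice 3 and 4 lay inside the range of the wild-type mice. No member was counted in a single library other than that of knockout mouse 2. Without that library, 9 members had a count.

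**Figure D1:**
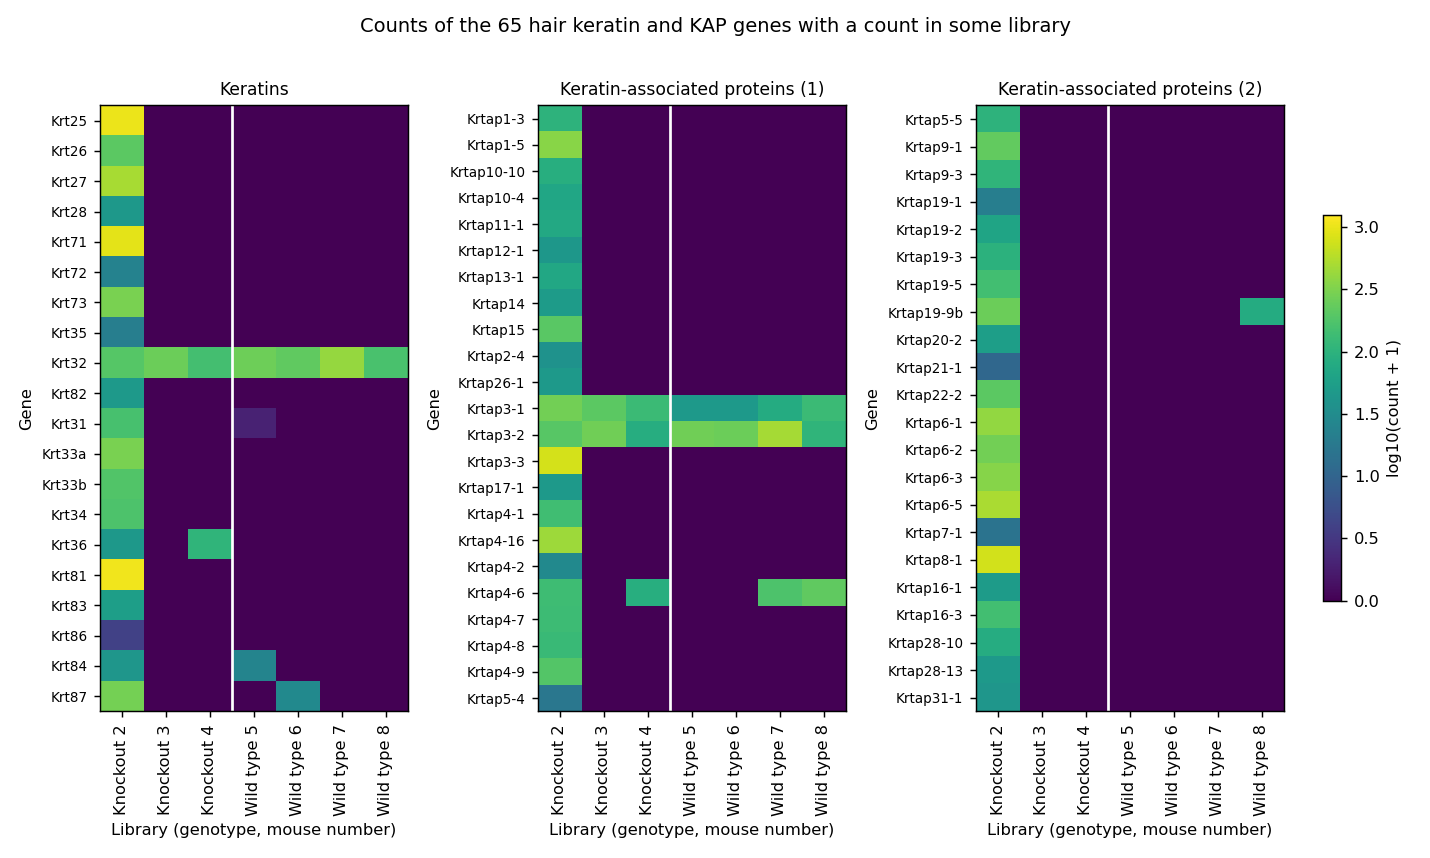
Counts of the 65 hair keratin and KAP genes with a count in some library, one row per gene and one column per library, on the scale log10(count + 1), with a white line between knockout and wild-type mice. The column of knockout mouse 2 is filled in all 65 rows, while only Krt32, Krtap3-1 and Krtap3-2 are filled across all 7 libraries.

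The keratins of the inner root sheath had counts in knockout mouse 2 and 0 counts in each of the other 6 libraries. Of the type I keratins of the sheath, Krt25 had 1030 counts there, Krt27 had 494, Krt26 had 209 and Krt28 had 44. Of their type II partners, Krt71, whose mutation gives curly coats in several mammals, had 948 counts, Krt73 had 296, Krt72 had 23 and Krt74 had 0. In sum, 7 of the 8 sheath keratins were counted, with 1777 counts of type I and 1267 of type II, so both partners of the filament were counted. Krt25 lies at 99206342 to 99213777 on the minus strand of chromosome 11 and Krt71 at 101642384 to 101651544 on the minus strand of chromosome 15 (mm39), in the type I and type II keratin clusters.

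Keratins of the shaft itself showed the same pattern with a few exceptions. Krt35, an early keratin of the hair matrix and cuticle, had 20 counts in knockout mouse 2 and 0 elsewhere. Among cuticle keratins, Krt82 had 45 counts in that library and 0 elsewhere, and Krt40 had 0 in all 7. Krt39, a late keratin of cortex and cuticle, was also at 0 in all 7. Krt32, a cuticle keratin, was counted in every mouse and is described with the other shared members below.

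The cortex, the bulk of the shaft, accounted for 1975 of the keratin counts of knockout mouse 2. Krt81, a type II cortex keratin, had 1072 counts there and 0 in the other 6 libraries, the highest count of any member. Its relatives Krt83 and Krt86 had 53 and 3 counts in that library and 0 elsewhere. Of the type I cortex keratins, Krt33a had 296 counts, Krt33b had 180 and Krt34 had 172, all in knockout mouse 2 and with 0 in the other libraries. Krt31 had 155 counts there and 1 in wild-type mouse 5.

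Krt36, another type I keratin of the cortex, was the exception, with 44 counts in knockout mouse 2, 106 in knockout mouse 4 and 0 in the other 5 libraries. It and Krt32 were the keratins counted higher in another library than in knockout mouse 2. Krt87, a type II hair keratin not assigned to a layer here, had 280 counts in knockout mouse 2 and 29 in wild-type mouse 6. Krt84, known from the filiform papillae of the tongue and from nail, had 42 in knockout mouse 2 and 24 in wild-type mouse 5. Over the shaft layers, which leave out Krt87 and Krt84, knockout mouse 2 held 1060 counts of type I and 1173 of type II keratins. The other libraries held 163 to 410 counts of type I and 0 of type II. Those type I counts were from Krt32, apart from the 106 of Krt36 in knockout mouse 4 and the 1 of Krt31 in wild-type mouse 5.

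**Figure D2:**
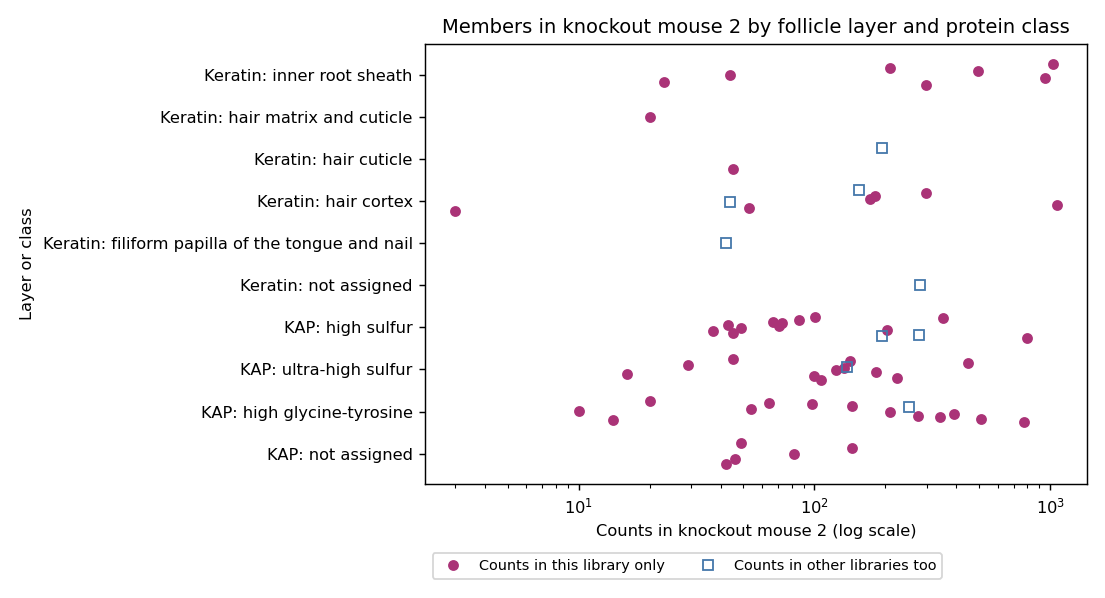
Counts in knockout mouse 2 on a log scale for each member counted there, arranged by keratin layer and KAP class; filled circles mark members with counts in that library only, open squares members counted in other libraries too. Every layer and class with more than 1 member spans a wide range, from 3 counts for Krt86 to 1072 for Krt81 in the cortex, and the inner root sheath holds filled circles only.

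KAPs are grouped by composition into high-sulfur, ultra-high-sulfur and high glycine-tyrosine proteins, and the numbered subfamilies were assigned to these classes from textbook knowledge. In knockout mouse 2, 45 of the 58 KAP genes had counts, 7599 in sum, against 2 to 4 genes in each of the other libraries. The high glycine-tyrosine class, known from the cortex, was the most complete, with 14 of 16 genes and 3157 counts. All 4 genes of its KAP6 subfamily were counted in knockout mouse 2 only, with 508 counts for Krtap6-5, 391 for Krtap6-1, 342 for Krtap6-3 and 274 for Krtap6-2. Krtap8-1 had 776 counts, Krtap22-2 had 210 and Krtap19-5 had 144, again with 0 in the other 6 libraries. Krtap19-9b had 252 counts in knockout mouse 2 and 79 in wild-type mouse 8.

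High-sulfur KAPs had counts for 14 of 18 genes in that library, 2392 in sum. Krtap3-3 led them with 794 counts, followed by Krtap1-5 with 350, Krtap15 with 204 and Krtap1-3 with 101, each with 0 in the other 6 libraries. Krtap3-1 and Krtap3-2, of the same subfamily as Krtap3-3, were counted in every mouse. The remaining high-sulfur genes with counts had 37 to 86 in knockout mouse 2 only.

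Ultra-high-sulfur KAPs, which include proteins of the cuticle, had counts for 12 of 17 genes and 1687 counts in sum. Krtap4-16 had 446 counts, Krtap9-1 had 225, Krtap4-9 had 183, Krtap4-1 had 141, Krtap4-7 had 134, Krtap4-8 had 124, Krtap9-3 had 107 and Krtap5-5 had 100, all of them in knockout mouse 2 with 0 elsewhere. Of the KAP4 subfamily 7 of 8 genes were counted, and of the KAP5 subfamily 2 of 5. Krtap4-6 was counted in 4 libraries. KAPs without a class here had counts for 5 of 7 genes, led by Krtap16-3 with 144, all in knockout mouse 2.

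The 28 members with counts that never reached 100 hold the lower end of each group. Krtap19-3, with 98 counts, was just under that level and Krtap5-5, with 100, just reached it. Counts between 1 and 9 were rare, at 2 of the 91 member values above 0. The same held over all genes. In each library 7.91% to 8.61% of the genes with a count had fewer than 10, and their median count was 138 to 202. Levels below are in CPM, counts divided by the library's size after TMM scaling, which makes libraries of different composition comparable. Taking 3 counts as the limit and counting error only, a count of 0 in knockout mouse 2 allows a level of up to 0.388 CPM. In the other libraries that limit is 0.323 to 0.395 CPM. Spread beyond counting error is not in this limit, and a 0 may stand beside large counts. Krtap4-6 had 87 to 218 counts in 4 libraries and 0 in the others.

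**Figure D3:**
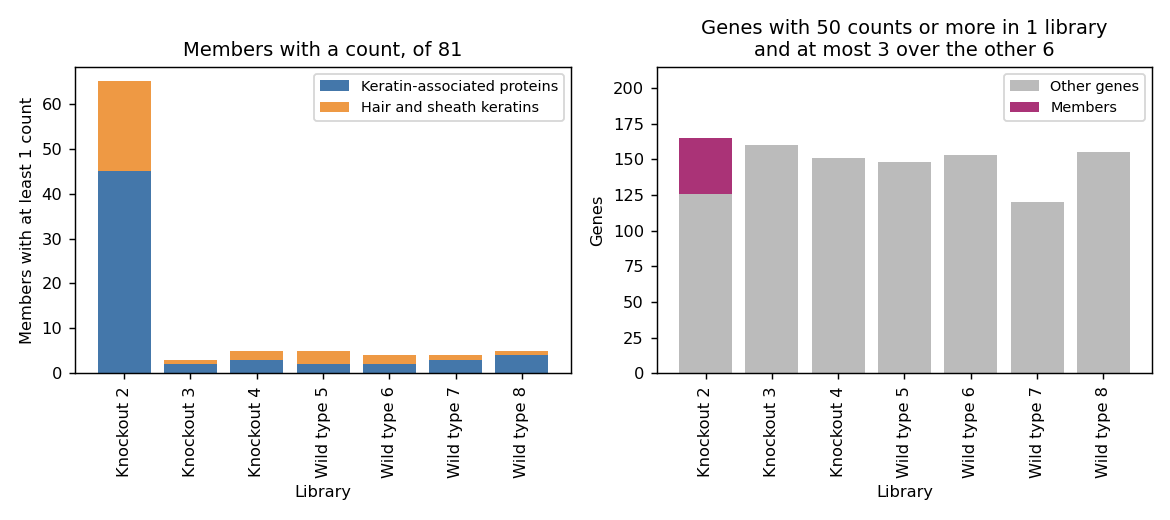
Left, number of the 81 members with at least 1 count in each library, KAPs and keratins stacked. Right, number of genes with 50 counts or more in that library and at most 3 summed over the other 6, with the members among them in colour. Libraries hold 120 to 165 such genes, but members are found among them only in knockout mouse 2, where they are 39 of 165.

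Genes counted in 1 library alone were common in these data, and knockout mouse 2 differed in which genes they were. With at least 50 counts in 1 library and at most 3 over the other 6, there were 165 genes in knockout mouse 2, 160 and 151 in knockout mice 3 and 4, and 148, 153, 120 and 155 in the wild-type mice. In knockout mouse 2, 39 of the 165 (23.6%) were members, and in each of the other 6 libraries 0 were. With a minimum of 20 counts in place of 50, members were 53 of 492 genes (10.8%) in knockout mouse 2, and 0 of 205 to 404 in the other libraries. Such genes also reached higher counts there, up to 1072, against 164 to 266 in the other libraries. Members were 8 of the 10 highest, 14 of the 20 highest and 20 of the 30 highest genes of this kind in knockout mouse 2.

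The KAP genes lie in clusters, and the counts of knockout mouse 2 covered each of them (mm39 coordinates throughout). On chromosome 11, 23 KAP genes lie between 99440956 and 99884820, and 18 had counts. On chromosome 16, 25 lie between 88407593 and 89368071, and 20 had counts. All 3 on chromosome 10, both on chromosome 1 and 2 of the 5 on chromosome 7 had counts as well. The keratins lie in the type I cluster on chromosome 11 (13 members) and the type II cluster on chromosome 15 (10 members).

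Counts in these spans were not limited to genes with a Krtap name. Of 81 other genes whose models lie within the KAP spans, 18 had counts in knockout mouse 2, with 2756 counts in sum, and 0 or 1 in each of the other libraries, with 0 to 9 counts. In knockout mouse 2, 10 of them had 50 counts or more and at most 3 over the other 6 libraries. This count was made after the data were seen. Many of these models carry provisional names, and whether they encode KAPs was not tested.

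Counts in 4 or more libraries were found for 4 members, and these could be compared between genotypes. Krtap3-1 stood at 36.0, 23.5 and 17.0 CPM in the knockouts (mice 2, 3 and 4), while the wild types (mice 5, 6, 7 and 8) had 4.95, 5.18, 9.70 and 15.8 CPM. Each knockout mouse lay above each wild-type mouse, though knockout mouse 4 and wild-type mouse 8 were close. The means were 25.5 ± 9.66 CPM (SD, n = 3) and 8.92 ± 5.11 CPM (SD, n = 4), a log2 fold change of 1.51 (SE 0.90). Among all 12888 genes that passed the filter on low counts, 3.44% were likewise higher in every knockout mouse. An exact two-sided permutation test on the absolute difference of means gave p = 0.0286, the smallest that 35 splits of the mice allow. With the smaller tail doubled, the form run first, the exact permutation test gave p = 0.0571, and the form on the absolute difference was adopted after that value was seen. Over all genes Krtap3-1 was not called (edgeR adjusted p = 1.00). The gene lies at 99456853 to 99457456 on the minus strand of chromosome 11.

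Krtap3-2, at 99446649 to 99447679 on the same strand, stood at 25.1, 29.8 and 11.2 CPM in the knockouts, and the wild types had 29.0, 28.6, 59.4 and 13.1 CPM. Its groups overlapped, with the highest value in wild-type mouse 7 and the lowest in knockout mouse 4. The log2 fold change was -0.56 (SE 0.67), with exact two-sided permutation p = 0.4. Between it and Krtap3-1 the order of the genotypes thus differed in sign, a difference that was not tested. Krtap3-3, their neighbour at 99440956 to 99441691, was at 103 CPM in knockout mouse 2 and at 0 counts elsewhere.

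Krt32, at 99971674 to 99979100 on the minus strand of chromosome 11, stood at 24.98, 28.3 and 19.3 CPM in the knockouts, and the wild types had 27.7, 24.8, 50.3 and 20.2 CPM. Knockout mouse 2 lay in the middle of the 7 libraries, and wild-type mouse 7 was highest. The log2 fold change was -0.34 (SE 0.59), with exact two-sided permutation p = 0.657, and it was 0.00060 without wild-type mouse 7. Krtap4-6 stood at 17.7, 0 and 11.4 CPM in the knockouts and 0, 0, 21.1 and 27.0 CPM in the wild types, with mice of both genotypes at 0. Its log2 fold change was -0.31 (SE 2.10), with exact two-sided permutation p = 0.914, and its sign turned when knockout mouse 3 or wild-type mouse 7 or 8 was left out.

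**Figure D4:**
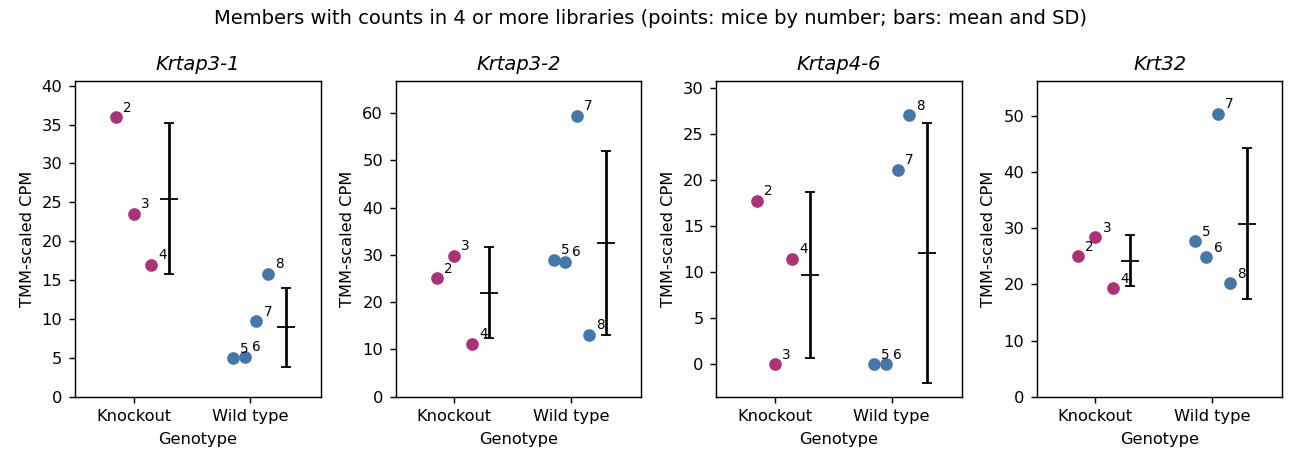
TMM-scaled CPM of Krtap3-1, Krtap3-2, Krtap4-6 and Krt32 in each mouse, with mean and SD beside the points and mouse numbers as labels. In Krtap3-1 the 3 knockout mice, at 17.0 to 36.0 CPM, lie above the 4 wild-type mice, at 4.95 to 15.8 CPM, and in the other 3 genes the genotypes overlap.

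Without Krt32, Krtap3-1, Krtap3-2 and Krtap4-6, a set chosen after the data were seen, the other 77 members summed to 12396 counts in knockout mouse 2. Knockout mice 3 and 4 had 0 and 106 of them, and the wild types 25, 29, 0 and 79. The 106 counts of knockout mouse 4 were Krt36 alone. The 4 shared members themselves did not follow knockout mouse 2, which was highest only in Krtap3-1.

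Between the genotypes, edgeR's quasi-likelihood test with its default filter called 3 of 12888 genes (0.0233%), and 0 of the 4 members that passed the filter were among them. At an unadjusted p under 0.05 there were 555 genes, and 0 of the 4 members. DESeq2 called 123 of 12493 genes (0.985%) and 0 of the 4 members. The 61 other members with counts did not pass the filter, because they lacked counts in enough libraries. On simulated counts this edgeR fit missed most genes at each of the folds simulated, so a gene that it did not call may still differ.

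Without a filter, edgeR called 76 of 19128 genes (0.397%), and 34 of them higher in knockout skin (0.178%). Members called were 8 of the 65 with counts, all higher: Krt25, Krt27, Krt71 and Krt81, and Krtap3-3, Krtap4-16, Krtap6-5 and Krtap8-1. These are the 8 members with the most counts in knockout mouse 2, and each had 0 counts in the other 2 knockout mice and in the 4 wild-type mice, so 1 of 3 knockout mice showed the direction. Krt81 was at 46.3 ± 80.1 CPM (SD, n = 3) in knockout skin (edgeR adjusted p = 1.74e-10). That mean is 132-fold the limit of 3 counts per library in the wild type, which covers counting error only. Krtap4-16, at the other end, was at 19.2 ± 33.3 CPM, 55.0-fold that limit (edgeR adjusted p = 0.0264). In each of the 8 genes the SD exceeded the mean, as it must with counts in 1 of 3 mice. On simulated counts the fit without a filter called 52 unchanged genes, beside 25 of 100 genes changed 4-fold and 53 of 100 changed 16-fold. The fit with the filter called 3 unchanged genes, beside 17 and 45. In that simulation the adjusted p without a filter thus did not hold false calls under 0.05, a limit on every call without a filter here.

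Calls of this kind were confined to knockout mouse 2 under that setting. Of the 76 called genes, 10 had counts in a single library, and all 10 had them in knockout mouse 2. In all, 3425 genes with counts in a single library were tested. Outside knockout mouse 2 the highest count of such a gene was 132 to 221 by library, and the lowest called member had 446. The calls thus restate the high counts of knockout mouse 2 and are not a separate result. Krtap6-1, with 391 counts, was the first member below the called ones (edgeR adjusted p = 0.0781). With at least 10 counts over the 7 libraries as the filter, edgeR called 25 genes and 3 members, Krt25, Krt71 and Krt81. DESeq2 without a filter called 101 of 14939 genes (0.676%) and 0 members, and gave 13 members an adjusted p. Without knockout mouse 2 these 8 genes have no counts.

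The other genes of the shaft and sheath, 13 genes listed beside the keratins and KAPs, were high in knockout mouse 2 only in part. Of the 13, 6 were highest in that library. Trichohyalin (Tchh), the protein that hardens the inner root sheath, had 1849 counts in knockout mouse 2, 0 and 78 in knockout mice 3 and 4, and 0, 45, 0 and 76 in the wild-type mice. Prr9, a small proline-rich protein gene, had 972 counts in knockout mouse 2, then 0 and 101, and 0, 53, 0 and 122 in the wild-type mice. Knockout mouse 2 was the highest in both, and the remaining mice of the 2 genotypes overlapped. Tchh was not called with the filter (log2 fold change 4.52, SE 1.79, edgeR adjusted p = 1.00) and was called without it (edgeR adjusted p = 1.44e-09). DESeq2 without a filter did not call Tchh (adjusted p = 0.742), nor did edgeR with a minimum of 10 counts in sum (adjusted p = 0.360). Without knockout mouse 2 its log2 fold change was 0.50 (edgeR adjusted p = 0.996). Cdsn, which encodes corneodesmosin of epidermis and sheath, averaged 602 ± 53.1 CPM over knockouts (SD, n = 3) and 620 ± 73.5 CPM over wild types (SD, n = 4). Selenbp1 was at 40.5 ± 8.86 CPM and 27.0 ± 22.7 CPM.

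Of the 8 genes of that list that were tested, 5 had a log2 fold change above 0 and 3 below, with a median of 0.92 against -0.01 over all genes, and 0 were called. Without knockout mouse 2, 4 were above 0 and 4 below, with a median of 0.11. Values of further genes of the list were picked out after they were seen. S100a3, a calcium-binding protein of the cuticle, had 122 counts in knockout mouse 2 and 1 in wild-type mouse 6. Crym had 138 counts in knockout mouse 2, 87 in knockout mouse 4 and 32 in wild-type mouse 8. Tchhl1 had 438 counts in knockout mouse 2 and 0 to 120 in the other libraries. Gprc5d had 34 counts in knockout mouse 2 and 0 elsewhere. Dsg4, the desmosomal cadherin of the shaft, and Padi3, an enzyme that citrullinates trichohyalin, had 0 counts in all 7 libraries.

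**Figure D5:**
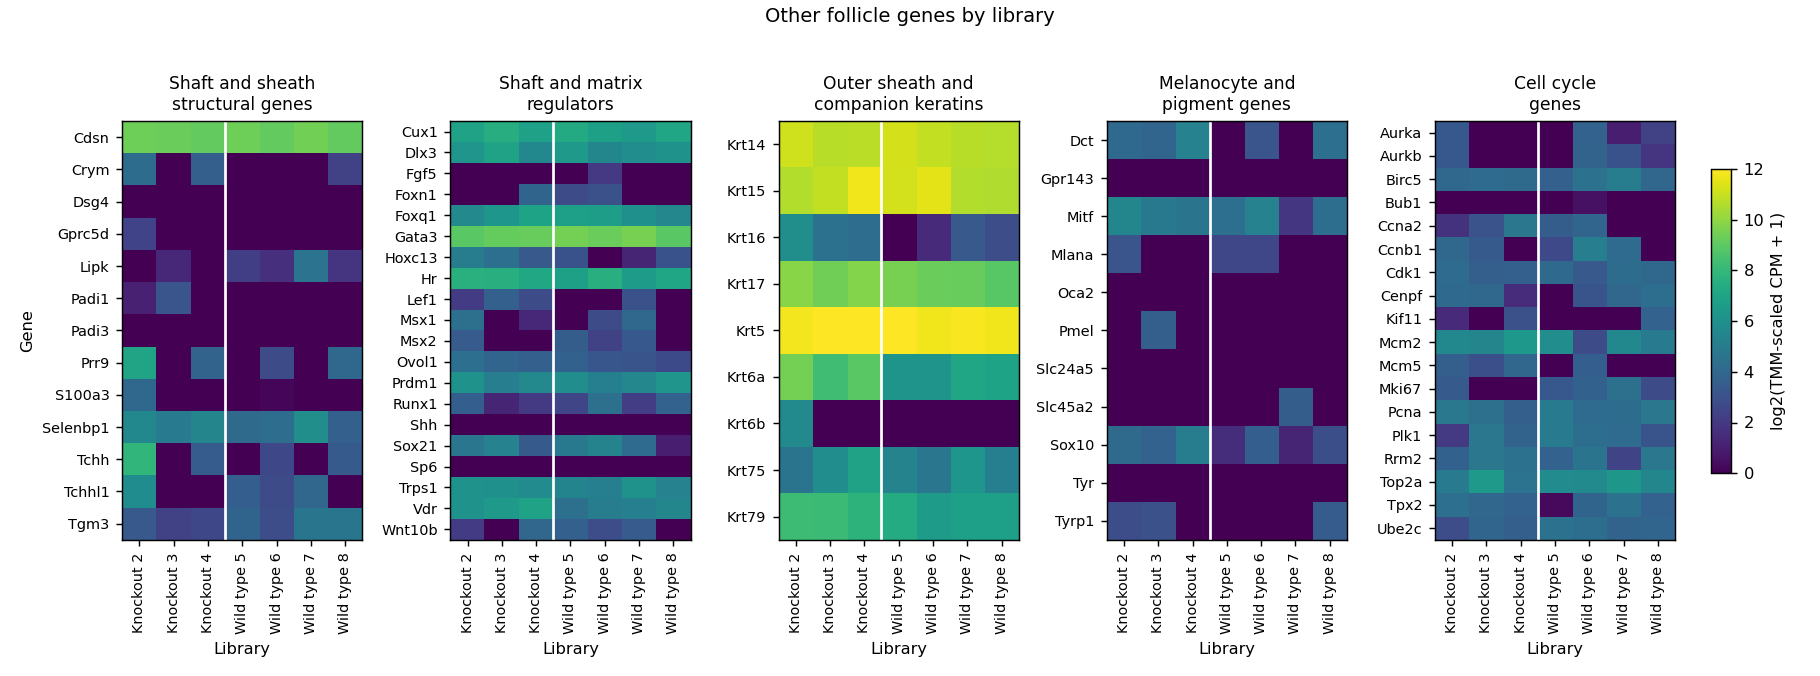
Level of each listed gene in each library, as log2(TMM-scaled CPM + 1), in 5 panels for structural genes of shaft and sheath, their regulators, keratins of the outer and companion layers, pigment cell genes and cell cycle genes. Tchh, Prr9 and Krt6b are brightest in the first column, knockout mouse 2, while the panels of regulators and cell cycle genes show no such column.

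Transcription factors and other regulators of the shaft and matrix, 20 genes of which 17 were tested, did not stand apart in sum in knockout mouse 2. Their summed level was 1256 CPM there, against 1049 to 1416 CPM in the other libraries. Gata3 alone averaged 600 CPM over the 7 libraries, so the sum says little of regulators at low levels. Of the 20 genes, 4 were highest in knockout mouse 2. Above 0 were 12 genes and below 0 were 5, with a median log2 fold change of 0.33, and edgeR called 0. DESeq2 called 1 gene of the list, higher, both with the filter and without it. Gata3, a factor of the inner root sheath that the epidermis also expresses, averaged 549 ± 58.2 CPM over knockouts and 639 ± 120 CPM over wild types. Hr, a corepressor needed for hair regrowth, was at 176 ± 29.5 CPM and 132 ± 39.7 CPM, Cux1 at 137 ± 34.0 CPM and 123 ± 30.9 CPM, and Foxq1, known for hair texture in satin mice, at 83.8 ± 36.9 CPM and 79.6 ± 29.5 CPM (SD, n = 3 and 4). Hoxc13, the regulator of hair keratin genes, was looked at after its values were seen, and had 244, 175 and 71 counts in the knockout mice and 66, 0, 11 and 58 in the wild-type mice. Every knockout mouse was above every wild-type mouse, as in 3.44% of all 12888 genes tested, and the gene was not called (log2 fold change 2.36, SE 1.54, edgeR adjusted p = 1.00). Vdr, also picked out after its values were seen, likewise had no overlap. It had 68.3, 86.8 and 120 CPM in the knockout mice and 20.2 to 43.8 CPM in the wild-type mice. EdgeR did not call Vdr (log2 fold change 1.48, SE 0.38, adjusted p = 0.519 with the filter).

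Keratins of the outer root sheath and the companion layer surround the inner root sheath. Of these, edgeR called 1 of 8 tested with the filter, Krt6a, and 2 of 9 without it, Krt6a and Krt79. DESeq2 called 2 with the filter and 2 without it. The 3 knockouts had 721, 322 and 481 CPM of Krt6a, and the 4 wild types 74.0, 74.3, 135 and 124 CPM. It was higher in all 3 knockout mice, by 2.32 on the log2 scale (SE 0.31, edgeR adjusted p = 0.0256), and by 1.98 without knockout mouse 2 (edgeR adjusted p = 0.0821). The edgeR call ended when any mouse other than knockout mouse 3 was left out (adjusted p 0.0378 without that mouse, 0.0821 to 0.299 without another). DESeq2 with the filter called Krt6a on all 7 mice (adjusted p = 2.84e-12), and was not run with a mouse left out. Krt79, a keratin of the upper follicle, had 298, 290 and 218 CPM in the knockout mice and 167, 96.9, 107 and 110 CPM in the wild-type mice, with no overlap. Its log2 fold change was 1.16 (SE 0.26, edgeR adjusted p = 0.331 with the filter and 0.0150 without it). That call held when knockout mouse 4 was left out, and likewise wild-type mouse 5, but ended on leaving out any of the remaining 5 mice, among them knockout mouse 2 (edgeR adjusted p 0.0596 to 0.128). DESeq2 without a filter called Krt79 on all 7 mice (adjusted p = 0.00120). Krt6b, a close relative of Krt6a, had 408 counts in knockout mouse 2 and 0 in the other libraries, and Krt75, a keratin of the companion layer, was lowest of the 7 in knockout mouse 2, at 23.6 CPM against 25.2 to 120 CPM. Krt6b and Krt75 were picked out after their values were seen. Krt5, Krt14, Krt15 and Krt17 were not called, with log2 fold changes of 0.20, -0.02, 0.15 and 0.46. The list had 7 genes above 0 and 1 below, with a median of 0.52.

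Pigment cells supply melanin to the growing cortex, and their genes were low in these libraries. Tyr, picked out after its values were seen, which encodes the enzyme that starts melanin synthesis, was among the 4 of 11 listed genes at 0 counts in all 7. The summed level of the list was 73.3 to 95.1 CPM in the mutants and 14.7 to 63.4 CPM in control skin, with 91.0 CPM in knockout mouse 2. Dct was at 22.94 ± 13.55 CPM and 6.91 ± 9.25 CPM, Mitf at 32.0 ± 10.7 CPM and 20.2 ± 15.1 CPM, and Sox10 at 20.7 ± 10.6 CPM and 5.16 ± 4.46 CPM (SD, n = 3 and 4). All 5 tested genes were above 0, with a median log2 fold change of 0.77, and 0 were called. Without knockout mouse 2, 4 of the 5 were above 0, with a median of 0.43.

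Cell cycle genes, which mark the dividing hair matrix among other cells, did not follow the keratins. Their summed level was 252 CPM in knockout mouse 2 and 237 to 313 CPM in the other libraries. Of 17 tested, 6 were above 0 and 11 below, with a median log2 fold change of -0.23 and 0 called. Top2a averaged 47.0 ± 36.2 CPM over knockouts and 57.6 ± 15.1 CPM over wild types (SD, n = 3 and 4), and Mcm2 averaged 57.9 ± 21.4 CPM and 35.7 ± 22.9 CPM.

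Markers of the other tissues in a piece of skin moved with knockout mouse 2 in 1 list. All 6 dermal fibroblast genes were highest there, with a summed level of 29969 CPM against 10724 to 18277 CPM in the other libraries. Col1a1, for the main collagen of the dermis, was at 20392 CPM in knockout mouse 2 and 7914 to 13430 CPM elsewhere. All 6 had a log2 fold change above 0, with a median of 0.46, and without knockout mouse 2, 2 were above 0 and 4 below, with a median of -0.090. The part of this in the keratin and KAP counts was not tested. Of the 7 epidermal, 8 fat cell and 7 skeletal muscle genes, 0 were highest in knockout mouse 2. Fat cell genes summed to 9224 CPM there, inside the 8053 to 10147 CPM of the knockout mice and below the 14798 to 22694 CPM of the wild-type mice, and all 8 were below 0, with a median log2 fold change of -1.46. EdgeR with the filter called 0 of the 8, and without it 7, all lower, against 0.220% of all genes called lower. DESeq2 with the filter also called 7. From Lep, the gene of leptin (log2 fold change -2.39), to Cfd, that of adipsin (-1.08), the edgeR adjusted p without a filter ran from 1.74e-10 to 6.02e-04. Without knockout mouse 2 all 8 were again below 0, with a median of -1.71, and the same counts of 0 with the filter and 7 without it were called. DESeq2 without a filter called 6 of the 8. EdgeR called 5 with a minimum of 10 counts in sum, and 5 without a filter when knockout mouse 4 was left out. Without a filter, edgeR also called Myh4 of the muscle list higher (adjusted p = 1.41e-07), and 0 of the regulator, pigment, cell cycle, epidermal and fibroblast genes. Myh4 had 540, 6376 and 3753 CPM in the knockout mice and 756 to 1825 CPM in the wild types. The genotypes thus overlapped, with knockout mouse 2 lowest. Myh4 was not called with the filter, nor without it by DESeq2, nor by edgeR with a minimum of 10 counts or without knockout mouse 3.

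Some member values are uncertain because near-identical copies can share or lose reads. In the GENCODE M21 transcripts, 10 members share a run of 50 bases within the last 300 bases with another gene. Of these, Krtap1-4, Krtap4-13, Krtap5-1, Krtap5-2 and Krtap19-9a were at 0 in all 7 libraries, and Krt87, Krtap4-8, Krtap10-4, Krtap19-2 and Krtap19-3 had counts. Exons of 4 members overlap those of another gene, and these other genes had 0 counts. The sources used here do not say how reads with several matches were counted, or whether strand was used.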

How the data were processed

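RNA from powdered frozen skin of 3 knockout and 4 wild-type mice was made into 3' mRNA libraries with the QuantSeq kit, per the labels. The main deposited table gives raw counts of reads in each gene and mm39 exon coordinates. Among the tools in the submitters' processing notes are edgeR 3.36.0, STAR, featureCounts, GATK 4.2.4.0 and Subread 2.0.3, with no role given. The authors' second table holds log2 values of 12954 genes, and all 90678 were recovered from the counts as edgeR log2 CPM with a prior count of 2 (tolerance 1e-09); only 4 members are in it, so it was not used further.

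Counts of all 7 libraries were compared in edgeR 4.0.16 (R 4.3.3) with TMM factors and the quasi-likelihood F test, and genes were called at a Benjamini-Hochberg adjusted p under 0.05. This was done with the default filter (12888 genes) and on every gene with a count (19128 genes). Levels are TMM-scaled CPM. The limit for a count of 0 is 3 counts. Members with at least 10 counts in 3 libraries were compared by an exact permutation test over 35 splits. Libraries held 7009237 to 9256459 counts, and intervals are 95% Clopper-Pearson. The fits were tested on simulated counts, where both called some unchanged genes, more of them without the filter, and both missed most genes at the smaller fold simulated.

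Members with at least 100 counts are named. Genes named from the other lists are among the 4 with the highest mean CPM, were called by edgeR, or were picked out after their values were seen. Not every such gene is named. The members, lists and layers were chosen with earlier results of these data known. KAP classes, the TATANA pattern, shared 3' runs and neighbouring genes were added after the files were seen. A composition check on member proteins was planned and was not run, and protein sequences were not used here. Promoters came from RefSeq on GRCm38.p6, and their coordinates were kept apart from those of the mm39 table. Alternatives were DESeq2 1.42.0, its size factors in edgeR, TMM factors without the listed genes, a minimum of 10 counts in sum, other count minimums and leaving out each mouse.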

Additional observations from a re-analysis of the deposited data

Results flagged for a closer look

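In 6 of 17 groups of 4 wild-type values examined, 1 mouse lay far from the other 3. In each of the 6 it was the only wild-type mouse with a count, and beside 3 values of 0 any count lies this far off, so the usual rate of 1 group in 20 by chance does not apply. These are genes seen in 1 wild-type library. Among the keratins, Krt31 was at 0.108 TMM-scaled CPM in wild-type mouse 5 (1 count), Krt84 at 2.58 CPM in wild-type mouse 5 (24 counts) and Krt87 at 3.26 CPM in wild-type mouse 6 (29 counts). Krtap19-9b was at 9.78 CPM in wild-type mouse 8 (79 counts). Of the other shaft genes, both picked out after their values were seen, S100a3 was at 0.113 CPM in wild-type mouse 6 (1 count) and Crym at 3.96 CPM in wild-type mouse 8 (32 counts). The values of 1 count lie below the limit that a count of 0 allows. All 6 genes also had counts in knockout mouse 2, and no wild-type mouse had more than 2 of the 6.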

How the results depend on the processing

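No paired analysis was possible because the knockout and wild-type mice share no replicate numbers. With 1 mouse left out, 9 to 65 members had a count, the 9 without knockout mouse 2. With the filter, DESeq2 called 123 genes, and edgeR with 1 mouse left out called 0 to 1. Members called with the filter were 0 in every setting run. Without the filter, a minimum of 10 counts in sum gave 25 genes and 3 members, DESeq2 gave 0 members, and leaving out 1 mouse gave 0 members (without knockout mouse 2) to 9 members. Members took 0.199% of counts without mitochondrial genes in knockout mouse 2, 0.00982% and 0.00902% in knockout mice 3 and 4, and 0.00764%, 0.00727%, 0.0166% and 0.0102% in the wild-type mice. Genes counted in 1 library at 20 counts or more numbered 492 and 239 in knockout mice 2 and 4, and 237, 404, 205 and 282 in the wild-type mice, and the members among them were again in knockout mouse 2 only. The Krtap3-1 difference of 16.6 CPM missed 0.05 with the smaller tail doubled, and was 11.3 to 20.8 CPM with 1 mouse left out (exact permutation p 0.0667 to 0.133, designs that cannot pass 0.05). The sign of Krtap4-6 turned without knockout mouse 3 (log2 fold change 0.28, difference 2.56 CPM), wild-type mouse 7 (0.11, 0.732 CPM) and wild-type mouse 8 (0.47, 2.69 CPM), and that of Krt32 without wild-type mouse 7 (0.00060, 0.0162 CPM). With 1 mouse left out their log2 fold changes ran from -1.08 to 0.47 and from -0.50 to 0.00060, and their differences from -6.31 to 2.69 CPM and from -10.03 to 0.0162 CPM. Without knockout mouse 2, a setting applied to the other gene lists after the data were seen, as was their fit without a filter, the median log2 fold change of the dermal fibroblast genes turned to -0.090. By counting error alone a 0 allows at most 0.395 CPM in any library, and spread beyond counting error is not covered.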
